A study of Mus musculus with 6 samples.

Results

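Cathepsins are the proteases of the lysosome, and 10 of their genes (Ctsa, Ctsb, Ctsc, Ctsd, Ctse, Ctsh, Ctsk, Ctsl, Ctss and Ctsz) were followed here in the mouse pancreas. Each was found by its Ensembl identifier among the 22556 genes listed, and all 10 passed the filter of 1 TPM on average (TPM is a transcript level corrected for gene length, with an equal total for each library). Pancreas RNA of 6 wild-type C57BL/6 mice aged 8 weeks was sequenced, with 2 mice per group. The saline mice received no caerulein. The AP (acute pancreatitis) mice were given caerulein, a peptide that overstimulates the acinar cell, at 200 μg/kg in 10 injections into the peritoneum, after a saline pretreatment. The mice of the group called pretreated here were given polyI:C at 10 mg/kg, a synthetic mimic of viral double-stranded RNA, before the same course of caerulein. Tissue was collected 24 h after caerulein was begun. The interval between polyI:C and caerulein is 1 or 8 h in the study's methods, and which of them applied to the sequenced mice is not given in the sources used here. No group received polyI:C alone, so a difference between the pretreated mice and the saline mice covers both agents.

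Most cathepsins are made as inactive precursors, carry a mannose 6-phosphate tag that takes them to the lysosome, and mature there in acid. In the acinar cell, cathepsin B cuts trypsinogen into active trypsin, which is held to be an early step of pancreatitis, whereas cathepsin L cuts trypsinogen and trypsin into inactive products. Cathepsin D, an aspartic protease, can activate cathepsin B. Cathepsin S is the cathepsin of macrophages, dendritic cells and B cells that removes the invariant chain from class II molecules, and cathepsin C removes dipeptides from the granule proteases of neutrophils, mast cells and lymphocytes. For the description below, Ctsb and Ctsl were taken as the trypsinogen-processing cathepsins and Ctss, Ctsc, Ctsh and Ctsz as the myeloid-enriched cathepsins. Ctsa and Ctsd are widespread lysosomal cathepsins, and Ctse and Ctsk are restricted to certain tissues.

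The libraries were shallow and unequal. From the spacing of low TPM values, depth was estimated at 3297155 to 3962044 reads for the saline mice, 6900175 to 8846188 for the AP mice and 8820924 to 10826751 for the pretreated mice. The pancreas label was checked with acinar markers, of which 6 of 18 were analysed here, and all 6 were above 0 in every mouse. Changes were tested with limma on log2(TPM + 0.5) for 16814 genes, and a call needed a difference of at least 2-fold and an adjusted p within 0.05 (Benjamini-Hochberg, over all of these genes). With 2 mice a group, the smallest two-sided p of an exact permutation test is 0.333, so each call leans on the variance that limma pools across genes. Over all tested genes the median difference (log2) of AP and saline mice was 0.45, which a median-of-ratios scaling reduced to 0.06, and members are read against that shift.

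Promoter sequence of Ctss and Ctsc is shown first, because these myeloid-enriched genes share one set of letters and had the highest and the lowest fold change of their group in AP. Sequences are from RefSeq (GRCm38.p6), which gave 8 promoters for 7 of the 10 genes, and positions are counted from the RefSeq start base as 0. For Ctss and Ctsc that base is also the outermost start in GENCODE. Capitals mark matches, on either strand, to GAGGAAGT (a PU.1 site, here on the opposite strand in both), to the interferon-stimulated response element (GAAA, any 2 bases, GAAA) in Ctss and to the interferon-gamma activated site (TTCNNNGAA) in Ctsc.
Ctss, chr3:95526656-95526805, plus strand: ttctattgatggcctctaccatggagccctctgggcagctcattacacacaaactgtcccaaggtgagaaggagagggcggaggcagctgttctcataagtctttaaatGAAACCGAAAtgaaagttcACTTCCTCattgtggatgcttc
Ctsc, chr7:88277835-88277984, plus strand: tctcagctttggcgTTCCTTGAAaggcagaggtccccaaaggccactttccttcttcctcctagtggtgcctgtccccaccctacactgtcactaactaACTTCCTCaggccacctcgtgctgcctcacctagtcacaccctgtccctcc

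In windows of 300 bases, the response element was found in the Ctss promoter, at -21, and in 3.44% of 32851 mouse promoters. The PU.1 letters were found in Ctss at -2 and in Ctsc at -151, against 3.20% of all promoters. The E-box (CACGTG) was found in 1 of 2 Ctsa promoters, in Ctsd and in Ctsl, against 7.15%, and TCACGTGA, the site of the lysosomal regulator TFEB, which holds the E-box within it, in that Ctsa promoter and in Ctsd, against 0.974%. The RefSeq starts of these windows lie 900, 211 and 370 bases inside the GENCODE gene of Ctsa, Ctsd and Ctsl, so part or all of each window is within the annotated gene, and the Ctsa promoter at the outer start held 0 matches. Letters of the interferon-gamma activated site were found in Ctsc, against 8.30%, and those of AP-1 (TGANTCA) in 0 of the 8 promoters, against 7.81%. Such matches describe letters in a window and do not show that a factor binds there.

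In the saline pancreas, Ctsl had the highest level of the 10, at 1813 and 1482 TPM, and ranked 48 and 60 among all genes of the respective mouse. Ctsb (232 ± 32.6 TPM, SD, n = 2) and Ctsd (213 ± 16.9 TPM) followed, and their ranges overlapped. Ctsz was at 155 ± 6.21 TPM, Ctsc at 57.7 ± 3.61 TPM, Ctss at 37.7 ± 8.19 TPM and Ctsa at 33.7 ± 1.93 TPM, of which Ctss and Ctsa overlapped. Ctsk (11.5 ± 3.44 TPM) and Ctsh (10.6 ± 0.651 TPM) also overlapped, and Ctse was lowest at 0.263 ± 0.157 TPM. In the AP mice and in the pretreated mice no neighbours in the order overlapped, and the order was Ctsl, Ctsb, Ctsz, Ctsd, Ctss, Ctsc, Ctsa, Ctsh, Ctsk and Ctse in both. Ctss thus moved from rank 6 among the cathepsins in the saline mice to rank 5, above Ctsc, in both other groups.

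**Figure D1:**
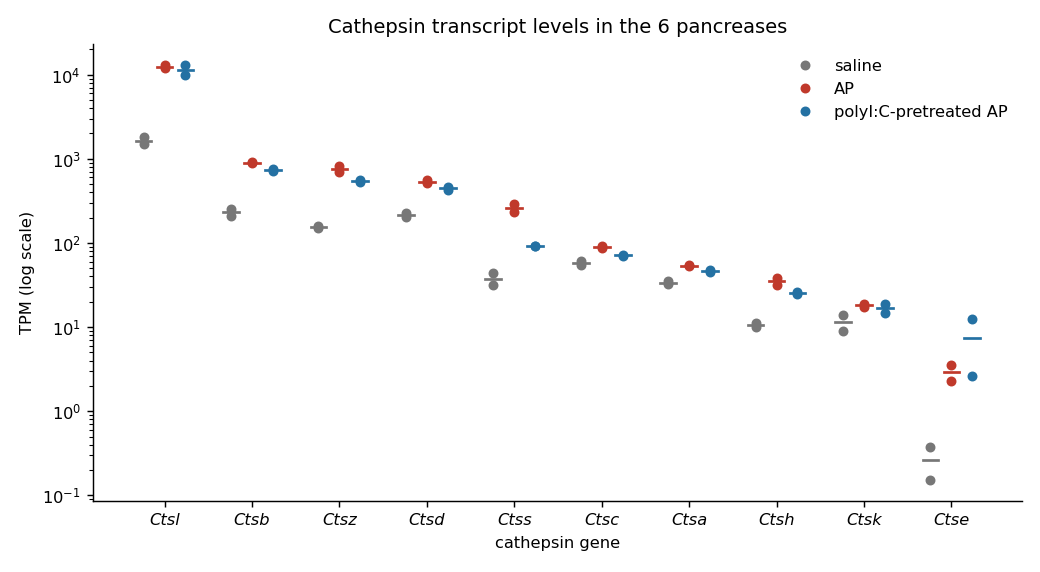
TPM of the 10 cathepsin genes on a log axis, with a point for each mouse (2 per group) and a line at the group mean. Ctsl exceeded every other cathepsin in every mouse, and for Ctss the AP mice (232 and 286 TPM) lie well above the pretreated mice (91.5 and 93.2 TPM).

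Caerulein raised the trypsinogen-processing and most of the myeloid-enriched cathepsins. Of the 10 cathepsins, 7 were called raised in AP against saline mice (Ctsb, Ctsd, Ctse, Ctsh, Ctsl, Ctss and Ctsz), where 18.1% of all tested genes were raised and 22.1% were called in either direction. After median-of-ratios scaling 5 were called raised, with Ctsd and Ctse lost. Limma called 0 members lowered. At an unadjusted p of at most 0.05, 0 members were lower, and voom on the estimated reads also called 0 lowered. The median log2 fold change of the members was 1.81. For each of the 10, both AP values lay above both saline values, as they did in 52.6% of all tested genes.

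Ctsl (ENSMUSG00000021477, GRCm38 chromosome 13, 64359337 to 64370890, minus strand) reached 12973 and 11957 TPM in AP. This was 7.57 times the saline mean, and higher by 2.93 on the log2 scale (SE, standard error, 0.17, adjusted p = 8.2e-05). It alone made up 1.30% and 1.20% of all TPM in these mice, against 0.181% and 0.148% in the saline mice, and ranked 8 among all genes in both. Ctsb (ENSMUSG00000021939, chromosome 14, 63122462 to 63145923, plus strand) had 255 and 209 TPM in saline mice and reached 907 and 885 TPM in AP mice, higher by 1.96 on the log2 scale (SE 0.11, adjusted p = 8.2e-05). Both trypsinogen-processing genes were therefore far outside the saline range, and Ctsl by the larger factor. Within each mouse, Ctsl exceeded Ctsb 7.11 and 7.09 times in saline mice and 14.3 and 13.5 times in AP, so the balance of these transcripts moved towards Ctsl. Part of the annotated sequence of both is shared with overlapping genes. Of the stretches of 100 bases in Ctsb transcripts, 11.4% lie opposite Fdft1, whose level was 82.7 ± 7.19 TPM in saline and 156 ± 3.77 TPM in AP mice, and 23.5% of those in Ctsl transcripts are shared with Gm47123 and Gm49230, which were not analysed here. The strand setting of the counting is not given in the sources used here.

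Among the myeloid-enriched cathepsins, Ctss (ENSMUSG00000038642, chromosome 3, 95526786 to 95556403, plus strand) had 43.5 and 31.9 TPM in saline mice and 232 and 286 TPM in AP mice. Its log2 fold change of 2.77 (SE 0.18, adjusted p = 0.00012) had an interval that overlapped that of Ctsl. Ctsz (ENSMUSG00000016256, chromosome 2, 174427493 to 174439039, minus strand), a carboxypeptidase, had 150.2 and 159 TPM in saline mice and 706 and 813 TPM in AP mice (log2 fold change 2.29, adjusted p = 4.2e-05). Ctsh (ENSMUSG00000032359, chromosome 9, 90054152 to 90076089, plus strand), an aminopeptidase, had 10.6 ± 0.651 TPM in saline and 35.0 ± 5.36 TPM in AP mice (1.67 on the log2 scale, adjusted p = 0.00034). Ctsc (ENSMUSG00000030560, chromosome 7, 88278085 to 88310888, plus strand) stood apart from these, at 60.3 and 55.2 TPM in saline and 85.9 and 91.9 TPM in AP mice. The groups did not overlap, but its log2 fold change of 0.62 (adjusted p = 0.0030) was below 2-fold, and was 0.19 (adjusted p = 0.18) after median-of-ratios scaling.

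Of the widespread and restricted cathepsins, Ctsd and Ctse were called raised in AP, and Ctsa and Ctsk were not. Ctsd (ENSMUSG00000007891, chromosome 7, 142375911 to 142388038, minus strand) had 201 and 225 TPM in saline mice and 515 and 556 TPM in AP mice. It rose by 1.33 (log2, SE 0.10, adjusted p = 0.00019), and by 0.90 after median-of-ratios scaling, below 2-fold. The same-strand gene Gm49369 shares 30.2% of the stretches of Ctsd. Ctsa (ENSMUSG00000017760, chromosome 2, 164832873 to 164841032, plus strand), a serine carboxypeptidase that protects lysosomal beta-galactosidase and neuraminidase, had a log2 fold change of 0.67 (adjusted p = 0.0031), and 0.24 (adjusted p = 0.12) after that scaling. Ctsk (ENSMUSG00000028111, chromosome 3, 95499256 to 95509362, plus strand), a collagen-cutting cathepsin of osteoclasts and fibroblasts, was at 9.06 and 13.9 TPM in saline and 17.3 and 18.8 TPM in AP mice, a difference that did not pass (0.66, 95% interval -0.02 to 1.35, adjusted p = 0.11).

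Ctse (ENSMUSG00000004552, chromosome 1, 131638306 to 131675505, plus strand), an aspartic protease of the stomach lining and of some immune cells, rested on very few reads. Saline mice had 0.152 and 0.374 TPM, about 2 estimated reads in all, and AP mice had 2.28 and 3.53 TPM, about 45 reads. The ratio of the pooled rates was 12.3, with an exact 95% interval of 3.22 to 105 that covers counting error only. Its call (log2 fold change 2.15, SE 0.66, adjusted p = 0.039) was lost when any saline or AP mouse was left out (adjusted p 0.12 to 0.25), with a pseudocount of 1 (0.070), with no filter on low values (0.076), with either other scaling (0.0503 and 0.071), with a prior following the mean (0.079) or a single prior (0.092), and by voom (0.32).

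With polyI:C pretreatment, Ctss was lower than in AP and the other 9 cathepsins did not pass the test. In pretreated against AP mice, 1 of the 10 cathepsins was called lowered, where 0.434% of all tested genes were, and 0 were called raised by limma, where 0.452% were. At an unadjusted p of at most 0.05, 6 members were lower and 0 higher, where 13.9% of all tested genes differed in either direction, and voom called 0 raised. The median log2 fold change of the members was -0.28, against 0.04 for all genes. In 7 of the 10, both pretreated mice lay below both AP mice, as they did in 22.1% of all tested genes. This comparison uses the same AP mice as the comparison with saline.

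Ctss was at 91.5 and 93.2 TPM in the pretreated mice, 35.6% of the AP mean, and the groups did not overlap. Its log2 fold change was -1.48 (SE 0.18, 95% interval -1.90 to -1.05, adjusted p = 0.022). Without AP replicate 1 or 2, or without pretreated replicate 1 or 2, the difference was -1.63, -1.32, -1.46 and -1.49, and the adjusted p was 0.35, 0.39, 0.19 and 0.38, respectively, with 0 or 1 gene lowered over all tested genes. The call was also lost with a variance prior that follows the mean (adjusted p = 0.078), with a single prior (0.15) and with no filter on low values (0.059).

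The trypsinogen-processing cathepsins differed little between these groups. Ctsl was at 13119 and 9899 TPM in the pretreated mice, on either side of the AP range (log2 fold change -0.13, 95% interval -0.53 to 0.27, adjusted p = 0.80). Ctsb was at 748 and 707 TPM, below both AP mice, and its difference of -0.30 (95% interval -0.57 to -0.03) had an adjusted p of 0.30. These intervals leave room for a fall of the size of the lower bound, and lie above the interval of Ctss. Within each mouse, Ctss stood at 25.5% and 32.3% of the Ctsb level in the AP mice and at 12.2% and 13.2% in the pretreated mice, below the 17.0% and 15.3% of the saline mice. Against Ctsl, Ctss stood at 2.40% and 2.15% in saline and 1.79% and 2.39% in AP mice, which overlapped, and at 0.698% and 0.941% in pretreated mice. Ctss and Ctsl thus kept a similar proportion in AP, and with polyI:C the proportion was lower in both mice. The difference between 2 mice and 2 in such a ratio cannot reach an exact p below 0.333.

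**Figure D2:**
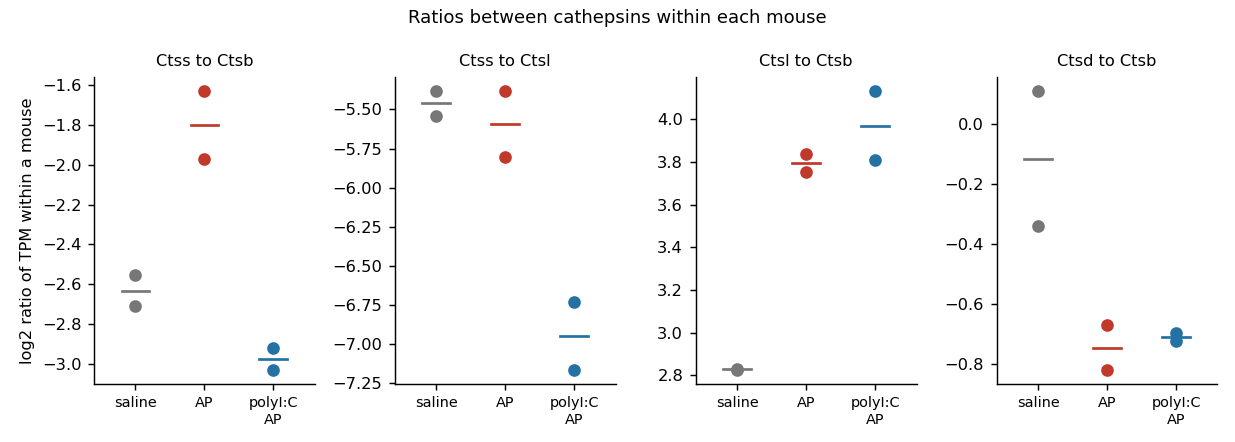
Log2 ratio of TPM between pairs of cathepsins within each mouse, by group, with a point per mouse and a line at the mean; each panel has its own axis. The ratios of Ctss to Ctsb and of Ctss to Ctsl are lowest in the pretreated mice, whereas the ratio of Ctsl to Ctsb is above the saline mice in both groups given caerulein.

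The other myeloid-enriched cathepsins did not pass the test. Ctsz was at 561 and 528 TPM in the pretreated mice, below both AP mice (-0.48, 95% interval -0.73 to -0.23, adjusted p = 0.094). Ctsh was at 26.1 and 25.0 TPM (-0.44, adjusted p = 0.26) and Ctsc at 69.7 and 72.3 TPM (-0.32, adjusted p = 0.21). Among the 6 genes called raised in AP other than Ctse, the share of the AP rise over the saline mean left in the pretreated mice was 24.7% for Ctss and ran from 61.3% for Ctsh to 91.2% for Ctsl in the other 5. After median-of-ratios scaling it was 19.6% for Ctss and 52.8% to 87.8% in the same 5, and these shares are given without a test. Ctsa, Ctsc and Ctsk had no called rise, and after that scaling Ctsa stood 0.0041 and Ctsc -0.16 from the saline mice on the log2 scale.

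Ctsd was at 462 and 429 TPM (-0.27, adjusted p = 0.31), and Ctsa at 47.7 and 44.9 TPM (-0.22, adjusted p = 0.44). Ctsk was at 14.6 and 19.1 TPM, which overlapped the AP mice (-0.11, 95% interval -0.80 to 0.57, adjusted p = 0.92). Ctsk and Ctss lie on the same strand of chromosome 3 with 17423 bases between them, and their intervals did not overlap. Ctse was at 2.62 and 12.4 TPM, so that 1 of the pretreated mice held most of its reads (0.92, 95% interval -0.66 to 2.50, adjusted p = 0.62). Without that mouse, replicate 2, the difference was -0.10.

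**Figure D3:**
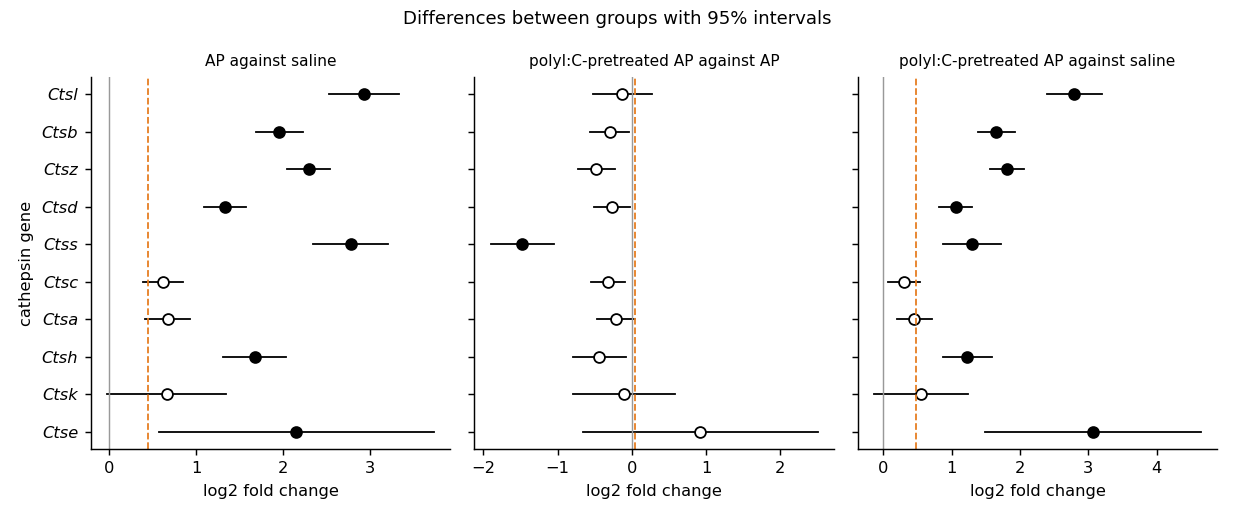
Log2 fold changes of the 10 cathepsins with 95% intervals from limma in 3 comparisons, where filled points passed the test, the grey line is 0 and the dashed line is the median of all tested genes. In the middle panel Ctss (-1.48) is the single filled point and Ctse has the widest interval (-0.66 to 2.50).

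Compared with saline mice, the pretreated mice still had high cathepsin levels. The 7 genes raised in the AP mice (Ctsb, Ctsd, Ctse, Ctsh, Ctsl, Ctss and Ctsz) were also called raised here, where 16.9% of all tested genes were, and 0 were called lowered by limma, where 2.97% were. At an unadjusted p of at most 0.05, 0 members were lower, and voom called 0 lowered. Ctsl was 6.99 times the saline mean (log2 fold change 2.80, adjusted p = 9.5e-05), Ctsb 3.14 times (1.65, adjusted p = 0.00015) and Ctss 2.45 times (1.30, adjusted p = 0.0019). Ctsz was raised by 1.81, Ctsh by 1.23 and Ctsd by 1.06. Ctse was raised by 3.07 (adjusted p = 0.011), and about 151 estimated reads against 2 gave a ratio of 33.8 with an exact interval of 9.18 to 281 for counting error only. About 129 of these reads came from replicate 2, without which the log2 fold change was 2.05 (adjusted p = 0.047), and without replicate 1 it was 4.09. The call was lost without any saline or AP mouse (adjusted p 0.060 to 0.081) and by voom (0.17). After median-of-ratios scaling 4 of the 7 were called, and Ctss (0.85), Ctsh (0.79) and Ctsd (0.61) were below 2-fold. Ctsk (0.55, adjusted p = 0.18), Ctsa (0.45, adjusted p = 0.016) and Ctsc (0.30, adjusted p = 0.052) were not called, and Ctsc was -0.16 after that scaling.

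Summed over the 10 genes, cathepsins made up 0.258% and 0.222% of all TPM in saline mice, 1.55% and 1.47% in AP and 1.51% and 1.18% in pretreated mice. Ctsl alone was 70.3% and 66.8% of this sum in the saline mice and between 81.3% and 86.6% of it in the other 4. Without Ctsl, Ctss made up 5.68% and 4.32% of the rest in saline mice, 9.08% and 10.4% in AP and 4.52% and 4.83% in pretreated mice. The share of Ctss among the other cathepsins was thus highest in the AP mice and overlapped between the other groups.

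The pancreas was sequenced whole, and fewer cells of a type and less RNA per cell cannot be told apart. The markers of monocytes and macrophages, of which all 14 were above 0 in every mouse, summed to 497 to 775 TPM in saline, 2886 to 3334 TPM in AP and 719 to 863 TPM in pretreated mice. In AP against saline mice 12 of the 14 were raised, where 18.1% of all tested genes were. In pretreated against AP mice 5 were lowered, where 0.434% were. In pretreated against saline mice 6 were still called raised and 2, Lyz2 among them, lowered, where 16.9% and 2.97% of all tested genes were. Of the 3 most abundant, Lyz2 had 1891 and 2118 TPM in AP and 203 and 119 TPM in pretreated mice (-3.68 on the log2 scale, adjusted p = 0.0042), Cd14 was at 218 and 222 TPM and at 216 and 209 TPM (-0.05, adjusted p = 0.89), and C1qb was at 203 and 271 TPM and at 125 and 119 TPM (-0.94, adjusted p = 0.26). For all 14, both pretreated mice lay below both AP mice, as in 22.1% of all tested genes, and the size of the difference ran widely, from Lyz2 to Cd14. Of the 12 neutrophil markers, 9 were analysed here. They summed to 5.80 to 18.2 TPM, 64.5 to 73.0 TPM and 21.8 to 45.0 TPM in the same order of groups. Limma called 3 of the 7 tested raised in AP against saline mice, and 0 in either direction in pretreated against AP mice. In that last comparison both pretreated mice lay below both AP mice for 4 of the 7. Among these, Retnlg averaged 31.7 TPM in AP and 4.51 TPM in pretreated mice (adjusted p = 0.10). S100a8 (7.79 and 8.90 TPM on average), S100a9 and Camp overlapped between these groups. Dendritic cell markers summed to 33.0 to 38.3 TPM, 29.4 to 36.2 TPM and 22.3 to 24.8 TPM. Zbtb46 made up most of that sum (29.4, 17.5 and 18.6 TPM on average), whereas Itgax, Batf3, Flt3 and Cd209a, at most 4.52 TPM in any mouse, were each highest in both AP mice. Clec9a (3.61 and 2.62 TPM in saline, 2.35 and 4.25 TPM in AP mice), Siglech and Xcr1 overlapped between saline and AP mice. Of the 4 dendritic cell markers tested, Itgax was raised in AP (1.77, adjusted p = 0.027) and 0 were called by limma in pretreated against AP mice. B and T cell markers summed to 17.0 to 20.3 TPM, 7.52 to 47.3 TPM and 6.72 to 11.8 TPM, so the AP mice differed most between themselves. No marker of these lists analysed here was at 0 in every mouse. The part of these cells in the Ctss difference was not tested.

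**Figure D4:**
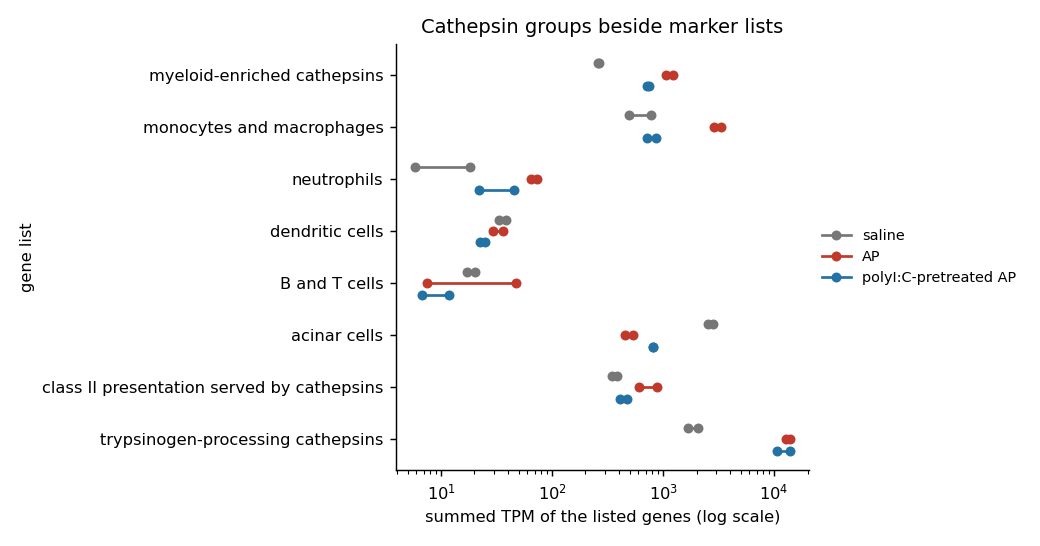
Summed TPM of gene lists on a log axis, with both mice of each group joined by a line. The sum of the monocyte and macrophage markers is highest in the AP mice (2886 to 3334 TPM) and is near the saline range with polyI:C (719 to 863 TPM). Lyz2 weighs most in that sum in saline and AP mice, and 6 of the 14 markers were still called raised in pretreated against saline mice. The trypsinogen-processing cathepsins stay far above the saline range in both groups given caerulein.

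Most acinar markers moved the other way. The 6 analysed here summed to 2549 to 2798 TPM in saline mice, 458 to 536 TPM in AP and 803 TPM in both pretreated mice, and 4 were lowered in AP. For the AP counts of these and the lists below, 18.1% of all tested genes were raised and 22.1% called in either direction. Ctrc (chymotrypsin C) made up most of the saline sum, with 1742 and 1677 TPM. It had 194 and 167 TPM in AP mice and 160 and 141 TPM in pretreated mice. Nr5a2 (0.16, adjusted p = 0.26) and Ptf1a (0.20, adjusted p = 0.51) were not lower in AP. In pretreated against AP mice 3 of the 6 were called raised and 0 lowered, where 0.452% and 0.434% of all tested genes were. Of the 12 tested genes of ductal and metaplastic epithelium, 7 were raised and 1 was lowered in AP, and of 9 fibroblast genes 4 were raised. The part of these cells in the rise of Ctsl and Ctsb was not tested. Cathepsin substrates of the acinar cell were analysed for 6 of 13 listed genes, of which 5 were tested. For Try10, a trypsinogen, saline mice had 11529 and 9688 TPM, AP mice 5873 and 3614 TPM and pretreated mice 2693 and 2384 TPM. It fell by 1.20 on the log2 scale in AP (adjusted p = 0.0057), and Ctrc, chymotrypsin C, was also lowered (-3.25, adjusted p = 2.0e-05), so that 2 of the 5 were lowered and 0 raised. The other trypsinogens tested did not pass in AP, with Prss3 at 6211 and 4412 TPM in saline and 9093 and 3884 TPM in AP mice (0.18, adjusted p = 0.80) and Prss1 at -0.72 (adjusted p = 0.22). Thus Ctsl exceeded Try10 in each of the 4 mice given caerulein and was below it in both saline mice. The trypsinogens are near-identical copies whose reads counting could leave out or give to another copy. Their levels, and so the order of Ctsl and Try10, are uncertain.

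The genes that serve cathepsins were counted from fixed lists, in which a share near 18.1% raised in AP is the background. Counts and fold changes of the lists are on the TPM scale and are not given after median-of-ratios scaling. That scaling took Ctsd from 1.33 to 0.90, so calls of list genes with rises near 2-fold may depend on it. Of 12 genes for sorting and activation of lysosomal enzymes, 6 were raised in AP and 0 lowered, with a median log2 fold change of 1.00. Lgmn, the asparaginyl endopeptidase that matures several cathepsins, had 27.4 and 10.8 TPM in saline, 203 and 230 TPM in AP and 126 and 125 TPM in pretreated mice. It rose by 3.61 (adjusted p = 0.00057), and the difference with polyI:C was -0.79 (95% interval -1.67 to 0.10, adjusted p = 0.42). The mannose 6-phosphate receptor genes M6pr and Igf2r rose by 1.67 and 1.21, and Psap, the precursor of the saposins, rose by 1.18. With polyI:C against AP, 0 of the 12 genes were called in either direction by limma.

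Of 29 other lysosomal hydrolase genes, 7 were raised in AP and 0 lowered, with a median log2 fold change of 0.68, and Scpep1, a carboxypeptidase, rose by 1.20. With polyI:C against AP, 0 of the 29 were called. Of 5 further cathepsin or cathepsin-like genes analysed here (Ctsf, Ctso, Ctsw, Tinag and Tinagl1), Ctso alone was called raised in AP (1.57, adjusted p = 0.0019). Ctsf had 89.5 and 111 TPM in saline mice and 60.7 and 57.5 TPM in AP mice, a fall below 2-fold (-0.75, adjusted p = 0.0066).

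Of 8 tested genes listed as inhibitors of cathepsins, 4 were raised in AP and 0 were called lowered. Cstb, the cytosolic cystatin B, had 192 and 255 TPM in saline, 1139 and 1117 TPM in AP and 892 and 842 TPM in pretreated mice (higher in AP by 2.35 on the log2 scale, adjusted p = 9.6e-05). Serpinb6a, an intracellular serpin, rose by 2.71, and Serpinb6b was also raised. Whether these serpins act on the 10 cathepsins followed here was not tested. Cst3, the secreted cystatin C, named after its values were seen, was at 1000 and 1073 TPM in saline mice and 578 and 589 TPM in AP mice (-0.83, adjusted p = 0.0013), and was 498 and 425 TPM in the pretreated mice, where it was called lowered against saline mice (-1.17, adjusted p = 0.00038). Cst3 was thus above Cstb in the saline mice and below it in all 4 mice given caerulein.

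Some class II genes, whose invariant chain cathepsin S processes, were lower with polyI:C. Of 9 tested, 2 were raised in AP, where 18.1% of all tested genes were. In pretreated against AP mice 3 were lowered, namely Cd74, H2-Aa and H2-Ab1, where 0.434% of all tested genes were. For 8 of the 9, all but Ifi30, both pretreated mice lay below both AP mice, as in 22.1% of all tested genes. H2-Aa had 34.1 and 28.8 TPM in saline, 56.8 and 106 TPM in AP and 14.5 and 10.1 TPM in pretreated mice (-2.62, adjusted p = 0.020). Cd74, the invariant chain itself, had 74.8 and 144 TPM in AP and 20.95 and 26.8 TPM in pretreated mice (-2.11, adjusted p = 0.045). In the pretreated mice Cd74 was also below saline mice (-1.14, adjusted p = 0.033), whereas Ctss was above them. Of 4 tested granule proteases that Ctsc activates, Gzma (granzyme A) was listed at 0 in all saline and AP mice and at 26.9 and 47.0 TPM in the pretreated mice, while Ctsc itself did not pass the test there.

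The genes most like 4 of the cathepsins in pattern were sought among 9414 genes averaging 10 TPM or more, by the root mean square difference of centred log2(TPM + 0.5) over the 6 mice. Ctsb was closest to Gnai2 (0.09), Nrp1 (0.09) and Cfl1 (0.09), against a median of 0.71 over all candidates. Ctsl was closest to St14 (0.10), Pvr (0.11) and Sbno2 (0.12), against a median of 1.17, and St14, the gene of the membrane serine protease matriptase, averaged 22.2 ± 0.388 TPM in saline, 184 ± 5.98 TPM in AP and 157 ± 21.4 TPM in pretreated mice. Ctss was closest to Tubb6 (0.21), Glipr2 (0.22) and Basp1 (0.22), against a median of 1.02. Ctse was closest to Tspan8 (0.37), Car2 (0.39) and Gpx2 (0.40), against a median of 1.27, and each of these had its highest value in the same mouse as Ctse, with Car2 at 44.7 TPM there and 5.36 TPM in the other pretreated mouse. All these neighbours were chosen for likeness over the same 6 mice, so a shared peak or a distance below the median follows from the choice. Between members, Ctsb lay closer to Ctsz (0.19) and Ctsh (0.23) than to Ctsl (0.51) or Ctss (0.50).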

How the data were processed

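Pancreas RNA of 6 mice was analysed, with groups and replicate numbers taken from the labels. The authors used Trimmomatic for trimming, STAR for mapping to mm10 and htseq-count for counting, and deposited TPM values for each mouse. How TPM was made from counts and whether counting used strand are not given in the sources used here. The study's methods name a stranded mRNA kit and the labels also a ribosomal RNA depletion kit. Of 22556 identifiers, 22490 were found in GENCODE M21 (GRCm38), the source of symbols and positions.

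Limma 3.58.1 in R 4.3.3 was fitted to log2(TPM + 0.5) of all 6 mice, with a coefficient per group and a variance prior following TPM times gene length. The 16814 genes that reached 1 TPM on average were tested, with adjustment over all of them. Fold changes are on this scale and understate changes of low genes. Reads were estimated from TPM steps, where 51.2% to 62.5% of low values were near whole multiples, against 21.2% to 22.2% with shuffled gene lengths. These estimates are not counts as deposited, so DESeq2 and edgeR were not used. The script was tested on simulated data.

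The members and lists were chosen with earlier results of these data known. All 10 members are named, and of each list at most 4 called genes, or 3 markers, of the highest mean TPM. Cst3 was named after its values were seen, as were some other genes outside that rule, and Fdft1 because it overlaps Ctsb. The labels do not say how the mice of a group were housed or that same-numbered mice were handled together. The p-values thus rest on the spread between these mice, combined with the variance that limma pools across genes. Deviations from group means correlated between same-numbered mice at -0.0039 to 0.035. Alternatives were other pseudocounts, filters, scalings, priors, voom, a replicate block and leaving out each mouse.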

Additional observations from a re-analysis of the deposited data

How the results depend on the processing

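The depth estimates of 3297155 to 10826751 reads and groups of 2 mice limit what could be seen, most of all for Ctse. The median-of-ratios scaling called 1574 genes raised and 1224 lowered in AP against saline mice, in place of 3042 and 673, and 1322 raised and 978 lowered in pretreated against saline mice, in place of 2837 and 499. In the latter comparison it called 4 cathepsins raised and changed Ctsc to -0.16. Voom on the estimated reads called 1781 genes raised in AP against saline mice, 210 lowered in pretreated against AP mice, and 1506 raised and 813 lowered in pretreated against saline mice, with 4 cathepsins raised in the last. Scaling without genes above 1% of a library called 1851 genes raised there.

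In pretreated against AP mice, where 76 genes were raised and 73 lowered, 36 and 35 were called with no filter, 14 and 14 with a prior following the mean, 22 and 19 with a single prior, and 330 and 401 at an unadjusted p. The first 3 of these settings called 0 cathepsins lowered. The cause was not tested.

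Leaving out each mouse in turn gave 1938 to 3105 genes raised and 442 to 646 lowered in AP against saline mice, with AP replicate 2 behind both lowest values, and 0 to 52 raised and 0 to 37 lowered in pretreated against AP mice, with 0 to 1 cathepsins lowered. The lone mouse left in a group is then assumed to vary like the others. In that comparison the log2 fold change ran from -0.10 to 1.94 for Ctse, from -0.33 to 0.075 for Ctsl and from -0.30 to 0.074 for Ctsk. The sign of Ctse and Ctsl turned without pretreated replicate 2 and that of Ctsk without pretreated replicate 1.

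With the replicate number as a block (replicate block), 65 genes were raised and 66 lowered in pretreated against AP mice, Ctss differed by -1.48 (adjusted p = 0.034), and no cathepsin changed its call. Over 477 member values under 16 alternatives, 441 kept direction and call, 32 lost the call and 4 turned direction. Only members called in the main fit could lose a call. These were 7 in AP against saline, 1 in pretreated against AP and 7 in pretreated against saline mice. The other values had no call to lose, so the 441 overstate how stable the calls were.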
